A study of Mus musculus with 16 samples.

Results

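Transcript levels of 6 T-box transcription factor genes, Tbx1, Tbx2, Tbx3, Tbx15, Tbx18 and Tbx22, were followed in first molar germs of embryonic mice. The genes were chosen by name from 23337 genes in the count tables, and all 6 passed the filter on low counts that left 16287 genes for testing. Poly(A) RNA-seq had been made from 16 libraries, 8 labelled upper first molar and 8 labelled lower first molar. There was 1 library for each label at each of 8 stages, every 0.5 day between ED14.5 and ED18.0, where ED is the embryonic day. All groups were, by their labels, wild-type CD1 males with no treatment, and each library pooled the left and right germs of 1 embryo. The labels also give 1 embryo for the labelled upper and labelled lower library of a stage. The embryos carry the numbers 1 to 8 in order of stage, and an embryo is named here as labelled. Stage and embryo therefore cannot be told apart, and a whole germ mixes epithelium with mesenchyme. In such bulk samples, fewer cells of a type and less RNA per cell cannot be told apart.

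T-box proteins share a DNA-binding domain, the T-box, which was first described in brachyury and binds sites built around the letters AGGTGTGA. Some family members mainly activate transcription and others, above all Tbx2 and Tbx3, mainly repress it. In the tooth, Tbx1 is known as a gene of the dental epithelium and of the progenitors of the mouse incisor, and its loss in humans underlies much of the 22q11.2 deletion syndrome. Tbx15, Tbx18 and Tbx22 form a closely related subgroup that can recruit Groucho corepressors, and mutations in human TBX22 cause X-linked cleft palate.

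The coordinates of the genes are those of RefSeq on GRCm38.p6, the assembly of the submitters' mm10 build. Tbx1 lies at chr16:18580979-18590671 on the minus strand, Tbx2 at chr11:85832615-85841948 on the plus strand and Tbx3 at chr5:119670534-119684724 on the plus strand. Tbx15 lies at chr3:99240348-99354260 on the plus strand, Tbx18 at chr9:87702800-87731260 on the minus strand and Tbx22 at chrX:107667964-107688980 on the plus strand. Genes of the opposite strand overlap Tbx3 (Tbx3os1), Tbx15 (Gm43120) and Tbx18 (D030062O11Rik), and the library kit does not mark strand. Reads from such a partner cannot be told apart from reads of the T-box gene, and none of these partners had a row of its own. Promoter windows from RefSeq were at hand for 3 of the 6 genes, Tbx1, Tbx18 and Tbx22, in 6 windows. The 250 bases before the start are shown for Tbx1, the only gene with a match, and for Tbx22, the gene that differed most between the labels. Each window is written 5′ to 3′ in the direction of the gene, at chr16:18590672-18590921 for Tbx1 and chrX:107667714-107667963 for Tbx22, and capitals mark the letters AGGTGT, the inner part of a T-box site.
Tbx1: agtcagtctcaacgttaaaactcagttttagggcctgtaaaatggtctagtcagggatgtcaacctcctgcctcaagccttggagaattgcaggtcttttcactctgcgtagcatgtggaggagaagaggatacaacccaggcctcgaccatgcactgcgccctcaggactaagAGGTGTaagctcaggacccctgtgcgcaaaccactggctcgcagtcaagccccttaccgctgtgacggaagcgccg
Tbx22: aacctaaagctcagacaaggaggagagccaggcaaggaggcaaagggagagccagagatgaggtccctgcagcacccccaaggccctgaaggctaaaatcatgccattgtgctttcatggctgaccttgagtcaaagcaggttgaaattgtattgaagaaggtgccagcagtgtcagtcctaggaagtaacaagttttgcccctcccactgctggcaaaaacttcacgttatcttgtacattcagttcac
Both strands were searched for AGGTGTGA (TCACACCT on the other strand) and for AGGTGT, whose reverse complement is ACACCT, and every match to the longer word also holds the shorter one. None of the 6 windows held AGGTGTGA, which was present in 1.12% of 32851 RefSeq windows of the same length. AGGTGT was present once, in the Tbx1 window shown, and in 11.8% of all windows. These are letter matches and not measured sites.

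The libraries did not follow their labels in some respects, and every direction given here is between libraries as labelled. Pou3f3, Nkx2-3 and Dlx6 alternated from stage to stage within both labels, between the half-day stages (ED14.5, ED15.5, ED16.5 and ED17.5) and the whole-day stages (ED15.0, ED16.0, ED17.0 and ED18.0). Pou3f3, for example, ranged over 6.45–10.1 CPM (counts scaled to 1000000 per library) at half-day stages and 109.5–131.5 CPM at whole-day stages of the labelled upper series. In the labelled lower series it ranged over 4.45–5.46 CPM at half-day stages and 60.1–86.2 CPM at whole-day stages. The labels name no difference between these sets of stages, so results are given for each set too. The labels give male embryos, but Xist was at 1499–1831 CPM under the upper label and 431.8–1928 CPM under the lower label, and 4 Y-linked genes summed to 0 and 2 counts in all. Embryonic globin transcripts differed between the labels as well, with Hbb-y at 37.4 ± 39.2 CPM under the upper label and 0.495 ± 0.292 CPM under the lower label (SD, n = 8 each). The Hbb-y ranges did not overlap, at 3.03–102.2 CPM under the upper label and 0.106–0.910 CPM under the lower label. The labels nonetheless give the same embryo for both libraries of a stage, and that sharing was not established here. The flow cell followed the tooth label and cannot be told apart from it, and the first 4 and last 4 stages of each label ran in separate lanes. Gene counts per library totalled 33146758–38584429 in labelled upper and 35918529–44565205 in labelled lower libraries. Markers of dental epithelium and dental mesenchyme were present in every library, summing to 2969–4949 and 1815–2488 CPM in labelled upper libraries, and to 3891–5419 and 1115–2078 CPM in labelled lower libraries.

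**Figure D1:**
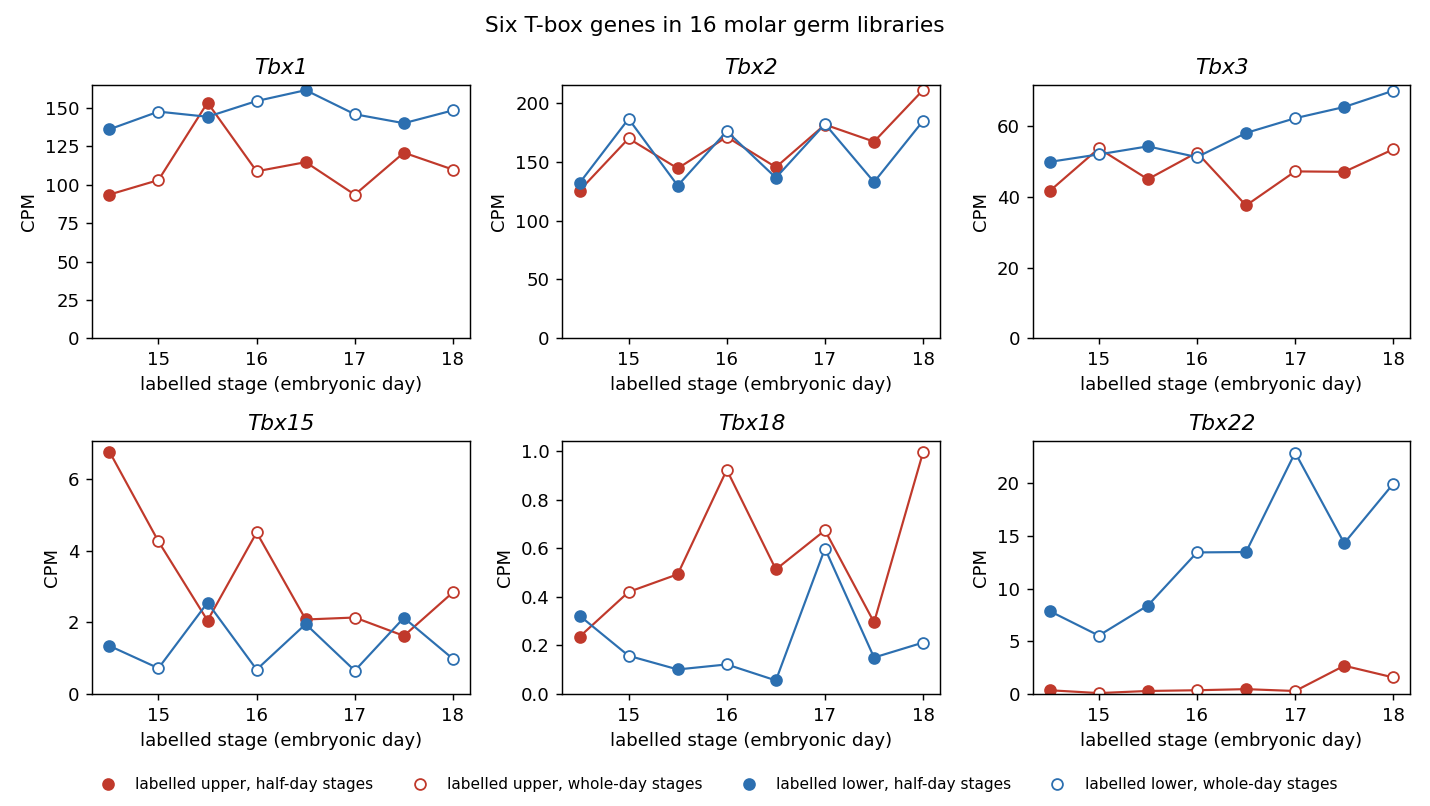
CPM of each of the 6 genes (vertical axes, linear, one scale per gene) against labelled embryonic day (horizontal axes), with 1 point per library and separate lines for libraries labelled upper and lower. Tbx22 lies between 5.54 and 22.9 CPM in every labelled lower library and at or below 2.68 CPM in every labelled upper library, whereas Tbx2 zigzags along both lines.

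Of the 6 T-box genes, 5 differed between labelled upper and labelled lower libraries at an adjusted p below 0.05 in edgeR's quasi-likelihood test with stage as a smooth term. Tbx15 and Tbx18 were higher in labelled upper libraries, and Tbx1, Tbx3 and Tbx22 were lower there, while Tbx2 did not pass. Among all 16287 genes, 36.2% passed in either direction, 18.1% each way, so a call by itself is common in this comparison. The median log2 difference was -0.11 for the 6 genes and 0.01 for all genes tested. The sizes of the 6 differences spanned a wide range. By size of its log2 difference Tbx22 ranked 30 of 16287, Tbx18 ranked 587, Tbx15 ranked 858, Tbx1 ranked 3383, Tbx3 ranked 4622 and Tbx2 ranked 12076.

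Tbx22, the X-linked gene of the developing palate, differed most. Its lowest, median and highest levels were 0.0839, 0.353 and 2.68 CPM in labelled upper libraries, against 5.54, 13.5 and 22.9 CPM in labelled lower libraries. Every labelled lower library was above every labelled upper library, a pattern shared by 3.52% of genes tested. The labelled upper values rest on few reads, 3 to 91 counts per library, against 247 to 881 counts per labelled lower library. The log2 difference was -4.37 ± 0.36 (SE; 20.6-fold lower in labelled upper; adjusted p = 9.47e-07), and it ran this way in 8 of 8 embryos. A difference over 16-fold past the threshold was found for 40 genes, or 0.246% of those tested. The difference was -3.84 (adjusted p = 0.000429) at half-day stages alone and -4.99 (adjusted p = 4.76e-05) at whole-day stages alone.

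Tbx22 also changed with stage within each label. In stage order its labelled upper levels were 0.353, 0.0839, 0.285, 0.353, 0.459, 0.280, 2.68 and 1.57 CPM. Its labelled lower levels were 7.87, 5.54, 8.40, 13.4, 13.5, 22.9, 14.3 and 19.96 CPM. The highest library of each series lay among its last 4, which averaged 1.25 ± 1.11 CPM under the upper label and 17.7 ± 4.53 CPM under the lower label (SD, n = 4 each). The first 4 averaged 0.269 ± 0.127 CPM under the upper label and 8.81 ± 3.32 CPM under the lower label. The linear slope was 1.04 ± 0.26 log2 units per day (adjusted p = 0.0464) in labelled upper libraries and 0.49 ± 0.10 (adjusted p = 0.0307) in labelled lower libraries. These were weak calls. The labelled upper call was kept without embryo 6 and lost without any other single embryo (adjusted p 0.0616–0.125), and the labelled lower call was lost without embryo 1, 2, 3 or 8. With lane as a term, neither slope passed (adjusted p = 0.562 in labelled upper and 0.408 in labelled lower libraries). Lane splits each series into its first 4 and last 4 stages and so overlaps with stage. Few genes of any kind passed with it, so this fit says little about Tbx22 itself.

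Other transcripts differed between the labels too. Markers of cornifying oral epithelium, a tissue next to the germ, summed to 97.3–511.2 CPM under the upper label and 194.0–1583 CPM under the lower label. Of 7 tested markers, 5 were lower in labelled upper (Krt4, Krt13, Lor, Sprr3 and Cnfn), against 18.1% of all genes tested. The highest sum was at ED18.0 in the labelled upper and ED16.5 in the labelled lower series, whereas Tbx22 was highest at ED17.5 and ED17.0. Bone markers summed to 1505–3667 CPM under the upper label and 2250–3948 CPM under the lower label. Of 7 bone markers, 2 were lower (Spp1 and Col1a1) and 1 higher (Ibsp) in labelled upper. That was near the share of all genes tested, 18.1% each way. The part of such tissue, or of the globin difference given above, in the Tbx22 difference was not tested.

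Tbx1, the dental epithelial member, was present at high levels under both labels. Its lowest, median and highest levels were 93.6, 109.4 and 153.5 CPM in labelled upper libraries, against 136.1, 146.8 and 161.6 CPM in labelled lower libraries. The groups overlapped only through the labelled upper library of embryo 3 at 153.5 CPM, since the other labelled upper libraries reached 120.9 CPM. Tbx1 was 1.31-fold lower in labelled upper libraries (log2 difference -0.39 ± 0.07 SE, adjusted p = 0.000763), and lower in 7 of 8 embryos. Dental epithelium markers summed to 4702 CPM in that same labelled upper library of embryo 3. They were higher in the labelled upper libraries of embryo 5 (4777 CPM) and embryo 7 (4949 CPM), where Tbx1 was at 114.8 and 120.9 CPM. Of the 9 epithelium markers, 4 were lower in labelled upper libraries and 1 was higher, against 18.1% of all genes tested each way. The part of epithelial content in the Tbx1 levels was not tested. The Tbx1 call was lost at half-day stages alone (-0.27, adjusted p = 0.167) and at the first 4 stages alone (-0.34, adjusted p = 0.0786). No stage slope of Tbx1 passed, at 0.01 ± 0.07 log2 units per day (adjusted p = 0.966) in labelled upper and 0.02 ± 0.02 (adjusted p = 0.688) in labelled lower libraries.

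Of the related repressors Tbx2 and Tbx3, Tbx3 passed between the labels and Tbx2 did not. Tbx3 had lowest, median and highest levels of 37.6, 47.1 and 53.7 CPM in labelled upper libraries, against 49.9, 56.2 and 70.0 CPM in labelled lower libraries. The ranges overlapped between 49.9 and 53.7 CPM. Tbx3 was 1.22-fold lower in labelled upper libraries (-0.28 ± 0.07 SE, adjusted p = 0.00697), and lower in 6 of 8 embryos. The Tbx3 difference was -0.09 (adjusted p = 0.394) at the first 4 stages and -0.47 (adjusted p = 0.001) at the last 4. At whole-day stages alone it was -0.18 (adjusted p = 0.199). In labelled lower libraries its stage slope was 0.14 ± 0.02 log2 units per day (adjusted p = 0.0115), with 51.9 ± 1.84 CPM over the first 4 stages and 63.9 ± 5.05 CPM over the last 4 (SD, n = 4 each). In labelled upper libraries the slope was 0.03 ± 0.05 (adjusted p = 0.772). The labelled lower slope did not pass without embryo 1 or 8, or with lane as a term (adjusted p = 0.301). Lane overlaps with stage, and few genes of any kind passed with it.

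Tbx2 had lowest, median and highest levels of 125.6, 168.5 and 211.0 CPM in labelled upper libraries, against 129.7, 156.2 and 186.5 CPM in labelled lower libraries. The labelled lower range lay within the labelled upper range, and the log2 difference was 0.06 ± 0.10 (SE, adjusted p = 0.671). Its stage slopes were 0.14 ± 0.04 log2 units per day (adjusted p = 0.0901) in labelled upper and 0.05 ± 0.06 (adjusted p = 0.685) in labelled lower libraries. With the alternating stage set as a term the labelled upper slope passed, at 0.11 (adjusted p = 0.0069).

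**Figure D2:**
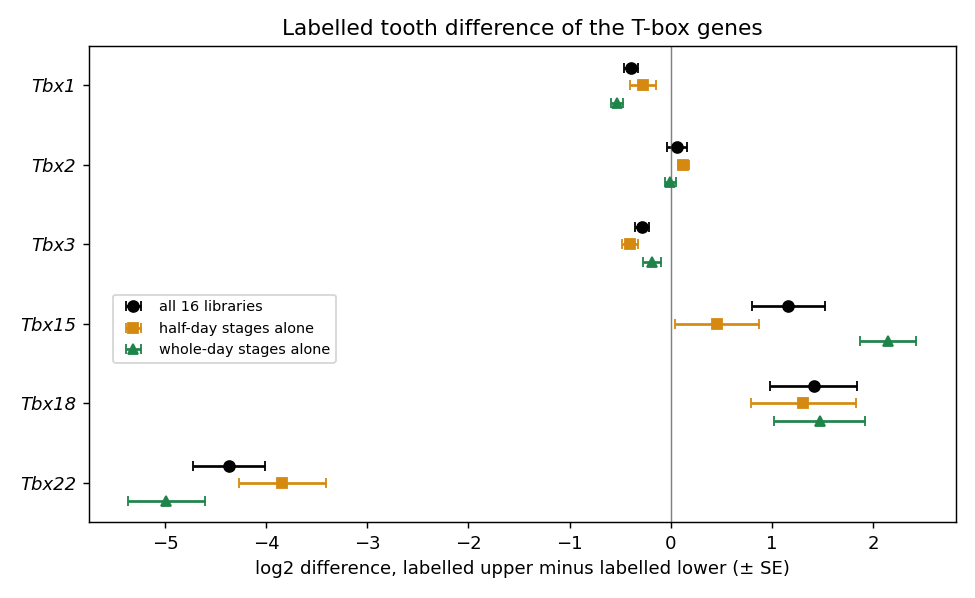
Log2 difference, labelled upper minus labelled lower, of the 6 genes (horizontal axis) with its standard error as bars, for the fit over all stages and for the half-day and whole-day stages alone. Tbx22 lies near -4.37, Tbx1 and Tbx3 lie below 0, Tbx2 near 0, and Tbx15 and Tbx18 above 0.

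Tbx15 and Tbx18, which in mice pattern skin, skeleton and the mesenchyme around organs, were at low levels and were higher in labelled upper libraries. Tbx15 had lowest, median and highest levels of 1.62, 2.48 and 6.76 CPM in labelled upper libraries, against 0.650, 1.16 and 2.55 CPM in labelled lower libraries. The ranges overlapped, and the 6.76 CPM of labelled upper embryo 1 stood highest. Tbx15 was 2.24-fold higher in labelled upper libraries (1.16 ± 0.36 SE, adjusted p = 0.0213), and higher in 6 of 8 embryos. The Tbx15 call was lost without embryo 1, 2, 4 or 8 (adjusted p 0.0563–0.0833). At whole-day stages alone the difference was 2.15 (adjusted p = 0.000775), and at half-day stages alone it was 0.46 (adjusted p = 0.48). At the last 4 stages alone it was 0.60 (adjusted p = 0.314). Tbx15 slopes did not pass, at -0.41 ± 0.14 log2 units per day (adjusted p = 0.108) in labelled upper and 0.01 ± 0.22 (adjusted p = 0.985) in labelled lower libraries.

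Tbx18 had few reads, with 162 counts over the labelled upper libraries and 67 over the labelled lower libraries. Its lowest, median and highest levels were 0.235, 0.502 and 0.996 CPM in labelled upper libraries, against 0.0557, 0.153 and 0.598 CPM in labelled lower libraries. The ranges overlapped, with labelled lower embryo 6 at 0.598 CPM above most labelled upper libraries. Tbx18 was 2.66-fold higher in labelled upper libraries (1.41 ± 0.43 SE, adjusted p = 0.0196), and higher in 7 of 8 embryos. Summed over libraries the exact Poisson 95% interval was 0.484–0.663 CPM under the upper label and 0.165–0.270 CPM under the lower label, which covers counting error only. The call was lost without embryo 3, 4 or 8 (adjusted p 0.0602–0.0661), and at half-day stages alone (1.31, adjusted p = 0.109). Of the lane subsets, the first 4 stages gave 1.51 (adjusted p = 0.063) and the last 4 gave 1.25 (adjusted p = 0.199). Tbx18 slopes were 0.30 ± 0.19 log2 units per day (adjusted p = 0.342) in labelled upper and 0.10 ± 0.29 (adjusted p = 0.876) in labelled lower libraries. Tbx18 is also known from mural cells of blood vessels. Of 10 pericyte and smooth muscle markers, 1 was higher in labelled upper (Notch3) and 4 were lower (Rgs5, Kcnj8, Abcc9 and Acta2), against 18.1% of all genes tested each way. The 10 markers summed to 661.3–843.0 CPM under the upper label and 697.8–854.2 CPM under the lower label. The part of mural cells in the Tbx18 difference was not tested.

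For stage, 1 of 6 genes passed in labelled upper libraries, where 6.13% of all genes did, and 2 of 6 passed in labelled lower libraries, where 4.11% did. A test of whether the slope differed between the labels called 0 of the 6 genes (edgeR), 0 at an unadjusted p below 0.05 and 0 by DESeq2, against 1.28% of all genes in edgeR. Closest were Tbx3 at -0.12 ± 0.06 log2 units per day (labelled upper slope minus labelled lower slope, adjusted p = 0.368) and Tbx22 at 0.57 ± 0.29 (adjusted p = 0.404). The Tbx3 and Tbx22 slopes were thus not shown to differ between the labels.

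The alternation between half-day and whole-day stages, found earlier in these libraries, is given as a description with no test. Tbx2 followed it under both labels. At half-day stages of the labelled upper series Tbx2 was at 125.6, 144.4, 145.4 and 167.1 CPM, and at whole-day stages at 169.8, 171.1, 181.6 and 211.0 CPM. In the labelled lower series it was at 131.9, 129.7, 136.4 and 132.8 CPM at half-day stages, and at 186.5, 175.9, 182.1 and 184.8 CPM at whole-day stages. Half-day libraries thus lay below whole-day libraries without overlap in both series, and each of the 7 steps between neighbouring stages went that way. The log2 ratio of means, half-day over whole-day, was -0.33 in labelled upper and -0.46 in labelled lower libraries. Such a split in both labels, half-day below, was found for 1.8% of genes tested.

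Tbx3 and Tbx15 followed the alternation under 1 label each. Tbx3 was at 41.7, 44.99, 37.6 and 47.1 CPM at half-day stages and at 53.7, 52.5, 47.2 and 53.5 CPM at whole-day stages of the labelled upper series. This split was narrow, with 47.08 CPM as the highest half-day and 47.21 CPM as the lowest whole-day value, and in the labelled lower series the sets overlapped. In the labelled upper series 6.24% of genes tested lay below at half-day stages without overlap. Tbx15 was at 1.34, 2.55, 1.95 and 2.12 CPM at half-day stages and at 0.718, 0.680, 0.650 and 0.978 CPM at whole-day stages of the labelled lower series. The half-day libraries were all above, a log2 ratio of 1.40 and a split that 2.49% of genes tested had in the labelled lower series. In the labelled upper series Tbx15 overlapped, with the whole-day library higher at 6 of 7 steps, the opposite way. Tbx18 overlapped under both labels, with the whole-day library higher at 6 of 7 steps in each. Tbx1 and Tbx22 overlapped under both labels.

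The marker sums moved with the alternation too. Dental mesenchyme markers summed to 1815–2006 CPM at half-day and 2244–2488 CPM at whole-day stages of the labelled upper series, without overlap. In the labelled lower series they summed to 1115–1619 CPM at half-day and 1583–2078 CPM at whole-day stages, with overlap. Dental epithelium markers summed to 4704–5419 CPM at half-day and 3891–4449 CPM at whole-day stages of the labelled lower series, without overlap. In the labelled upper series they summed to 3770–4949 CPM at half-day and 2969–3816 CPM at whole-day stages, with overlap. The part of tissue make-up in the Tbx2 levels was not tested.

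**Figure D3:**
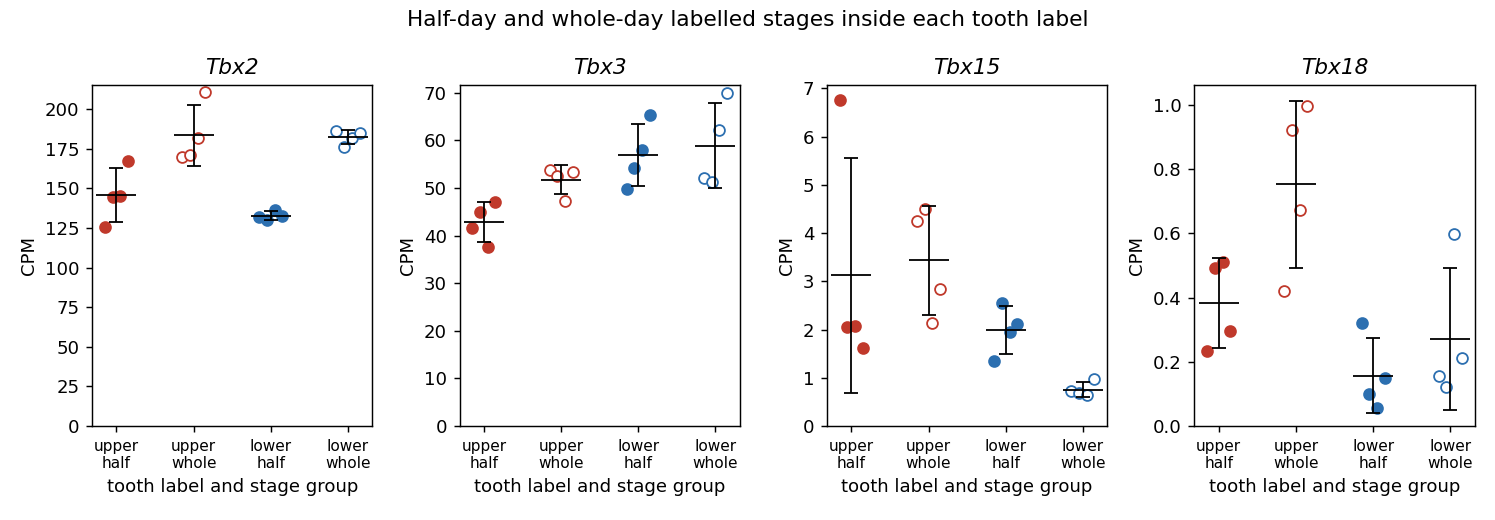
CPM of Tbx2, Tbx3, Tbx15 and Tbx18 (vertical axes, linear, one scale per gene) in the 4 half-day and 4 whole-day libraries of each label (horizontal axes); filled points are half-day and open points whole-day libraries, horizontal lines are means and bars are SD. Tbx2 at half-day stages lies below whole-day stages under both labels, and Tbx15 lies above them in labelled lower libraries.

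Levels of the 6 genes were compared with each other per kilobase of exon, on the scale of CPM per kb. In labelled upper libraries the order was Tbx2 at 45.4 ± 7.23, Tbx1 at 31.9 ± 5.46, Tbx3 at 7.14 ± 0.881, Tbx15 at 0.875 ± 0.471, Tbx22 at 0.137 ± 0.162 and Tbx18 at 0.120 ± 0.0586 CPM per kb (SD, n = 8). In labelled lower libraries it was Tbx2 at 43.4 ± 7.38, Tbx1 at 41.9 ± 2.27, Tbx3 at 8.74 ± 1.11, Tbx22 at 2.39 ± 1.08, Tbx15 at 0.367 ± 0.198 and Tbx18 at 0.0455 ± 0.0370 CPM per kb (SD, n = 8). Tbx22 thus stood next to Tbx18 under the upper label and above Tbx15 under the lower label. The ranges of Tbx2 and Tbx1 overlapped under both labels, and those of Tbx22 overlapped with both Tbx18 and Tbx15 in labelled upper libraries, so the order within these pairs is not set beyond their spread.

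The files held 11 other T-box genes, and 7 of them passed the filter. Between the labels 1 of the 7 was higher in labelled upper libraries and 2 were lower there, against 18.1% of all genes tested each way. Tbx4, a hindlimb and lung gene, averaged 0.754 ± 0.155 CPM under the upper label and 0.279 ± 0.155 CPM under the lower label (log2 difference 1.52 ± 0.24 SE, adjusted p = 0.000279). Tbx19, a pituitary gene, averaged 0.182 ± 0.173 CPM under the upper label and 0.983 ± 0.397 CPM under the lower label (-2.54 ± 0.41, adjusted p = 0.000276). Eomes, which acts in early embryos, brain and lymphocytes, averaged 0.0780 ± 0.0605 CPM under the upper label and 0.912 ± 0.846 CPM under the lower label (-3.28 ± 0.46, adjusted p = 0.000103). The slope of Eomes passed in edgeR in labelled lower libraries, at 1.14 ± 0.14 log2 units per day (adjusted p = 0.0071). In labelled upper libraries 0 of the 7 slopes passed in edgeR, 1 had an unadjusted p below 0.05, and 1 passed by DESeq2. Each of these 3 genes averaged under 1 CPM under either label. In the annotation, Eomes overlaps an opposite-strand gene (Gm33460) and Tbx19 a gene of its own strand (Gm16550), so their reads may be shared with those genes. T, Tbx6, Tbx21 and Mga did not pass between the labels. Mga, which carries a T-box beside a second DNA-binding domain, was at 127.1 ± 8.09 CPM under the upper label and 132.0 ± 7.11 CPM under the lower label. Tbx5, Tbx10, Tbx20 and Tbr1 did not pass the filter.

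Genes that work with T-box factors were also counted, in lists drawn up with earlier results of these data known. Of all genes tested, 36.2% passed between the labels, 18.1% each way. Of 12 palate genes, 7 were higher in labelled upper libraries (Mn1, Osr2, Meox2, Msx1, Bmp4, Shox2 and Pax9) and 2 lower (Fgf10 and Shh), and the median log2 difference was 0.42. Msx1 and Pax9 are also counted among the dental mesenchyme markers, whose median was 0.40. Bmp4 is also in the list linked to Tbx2 and Tbx3, and Fgf10 in the list linked to Tbx1. Mn1 is known in mice as an activator of Tbx22 in the palate. Mn1 was at 48.4 ± 12.8 CPM under the upper label and 20.9 ± 4.45 CPM under the lower label (1.205 ± 0.14, adjusted p = 2.67e-05), the opposite direction to Tbx22. The part of Mn1 in the Tbx22 levels was not tested. Shh, the epithelial signal of the enamel knot, was at 87.4 ± 34.3 CPM under the upper label and 374.8 ± 138.8 CPM under the lower label (-2.11 ± 0.20, adjusted p = 3.19e-06).

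Among genes linked to Tbx1, Eya1 and Cyp26b1 were higher in labelled upper libraries, and Fgf10, Cyp26a1, Cyp26c1, Myf5 and Wnt5a were lower there. The 3 Cyp26 genes encode enzymes that break down retinoic acid, and they moved in different directions. Cyp26b1 was at 85.3 ± 33.2 CPM under the upper label and 14.7 ± 5.75 CPM under the lower label (2.50 ± 0.16, adjusted p = 1.90e-07). Cyp26a1 was at 30.1 ± 12.2 CPM under the upper label and 80.8 ± 17.53 CPM under the lower label (-1.50 ± 0.18, adjusted p = 2.67e-05). Cyp26c1 was at 78.6 ± 38.4 CPM under the upper label and 201.6 ± 50.2 CPM under the lower label (-1.46 ± 0.30, adjusted p = 0.00181).

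Of 9 tested genes linked to Tbx2 and Tbx3, 1 was higher in labelled upper libraries (Bmp4) and 3 were lower (Cdkn1a, Gja1 and Cdh1), with a median of -0.0018. Cdkn1a, the cell cycle inhibitor p21 that Tbx2 and Tbx3 can repress, was at 30.9 ± 5.30 CPM under the upper label and 47.5 ± 9.58 CPM under the lower label (-0.60 ± 0.12, adjusted p = 0.00107). Gja1, the gap junction gene connexin 43 and another known target, was at 606.7 ± 197.5 CPM under the upper label and 1137 ± 186.3 CPM under the lower label (-0.95 ± 0.12, adjusted p = 3.24e-05). Of 9 corepressor genes, 3 were higher (Tle1, Tle4 and Hdac2) and 1 lower (Tle3) in labelled upper libraries, with a median of 0.01. In each of these lists 4 of 9 genes passed in either direction, near the 36.2% of all genes tested. Tle4, a Groucho family member, was at 65.1 ± 5.04 CPM under the upper label and 54.8 ± 4.84 CPM under the lower label (0.25 ± 0.05, adjusted p = 0.00204).

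Markers of the tissues a germ could hold differed in both directions between the labels, where 36.2% of all genes tested passed, 18.1% each way. Of 10 dental mesenchyme markers 5 were higher and 1 lower in labelled upper libraries, and of 9 dental epithelium markers 1 was higher and 4 lower. Of 10 tested skeletal muscle markers 1 was higher and 2 lower, of 8 endothelial markers 1 was higher and 3 lower, and of 7 cartilage markers 2 were higher and 2 lower. Of 7 tested erythroid markers 5 were higher, and of 8 macrophage and leukocyte markers 5 were lower. Of 6 Schwann cell markers 0 passed in edgeR, 1 at an unadjusted p below 0.05, and 1 passed by DESeq2.

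The genes whose levels were most like each member's were ranked by Pearson's r of log2 CPM over the 16 libraries, as a description among 12449 abundant genes (12450 for Tbx18). The libraries share labels, stages and alternation, so r is high for many genes. Pappa, Aim2 and Slc39a8 were most like Tbx22, with r of 0.99, 0.98 and 0.97. Dach1, Wnt10a and Fut2 were most like Tbx1, with r of 0.87, 0.87 and 0.86. Wnt10a encodes a Wnt ligand, and its mutations in humans lead to missing teeth. Spock2, Adamts4 and Cdh13 were most like Tbx2 (r of 0.93, 0.90 and 0.89), and Ptpla, Itgb1 and Spon1 most like Tbx3 (r of 0.93, 0.90 and 0.90). Lyl1, Wscd2 and Slc15a2 were most like Tbx15 (r of 0.87, 0.87 and 0.85), and Brf2, Mapk8ip3 and Notch3 most like Tbx18 (r of 0.93, 0.92 and 0.90). Notch3 encodes a Notch receptor of mural cells. Of the 10 pericyte and smooth muscle markers it alone was higher in labelled upper libraries, and 4 were lower there. Tbx18 had only 2 to 34 counts per library, which limits its r values.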

How the data were processed

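The deposited files held counts of reads per gene, 1 file for each of 16 libraries, made by the authors with Bowtie2 2.0.2, TopHat2 2.0.6 and HTSeq 0.5.3p9 on mm10, per the submitters' processing notes. For the counting, neither annotation nor strand setting is given in the sources used here. The kit was TruSeq V2 for poly(A) RNA, sequenced in pairs, per the labels. The 5 summary lines of each file were left out of library sizes; reads on no gene came to 12.6–15.1% and ambiguous reads to 0.955–1.14% of the sum of gene, no-gene and ambiguous reads. CPM was computed from each library's gene total. No 2 libraries held identical counts.

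Genes with at least 0.269 CPM, equal to 10 counts at the median depth, in at least 2 libraries were tested (16287 genes). The tests were two-sided edgeR 4.0.16 quasi-likelihood tests in R 4.3.3 with TMM scaling and Benjamini-Hochberg adjustment over all tested genes, at 0.05. The label difference used a natural spline of stage with 3 degrees of freedom, stage slopes were linear within each label, and the interaction was the difference of those slopes. The script was tested on simulated counts. DESeq2 1.42.0, other scaling, no filter, subsets of stages, lane, alternating stage and embryo terms, and leaving out each embryo were alternatives. The main tests held no embryo term. Their p-values measure the scatter of libraries around the fitted stage curve or line, which includes the alternation and any misfit of the curve. With 1 library per label and stage, the spread between embryos of a stage was not measured. A number marks the same embryo under both labels, per the labels. Same-numbered libraries deviated together only weakly (r 0.121–0.279, over 0.1 in 8 of 8 pairs). The best match was the library of the same number for 4 of 8 numbers. Same-numbered libraries also share their stage, so the pairing by embryo rests on the labels. With embryo as a replicate block the interaction called 475 genes, against 209 without it.

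The members and lists were chosen with earlier results of these data known. Of each list the text names up to 4 genes with values, those past the threshold with the largest label difference and a mean count of at least 50. Count and median of the list linked to Tbx1 are not reported here.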

Additional observations from a re-analysis of the deposited data

Results flagged for a closer look

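Of 12 sets of 8 libraries examined, 6 genes under each label, 1 held a library far from the others. Tbx1 in the labelled upper library of embryo 3 was at 153.5 CPM, with the nearest other labelled upper library at 120.9 CPM, a gap of 0.544 of the whole range. Chance alone marks about 1 in 20 sets of like libraries. The libraries of a set here also differ in stage and in the alternating stage set, so that rate is only a rough guide. The labelled upper library of embryo 3 is the reason the labelled groups overlap for Tbx1.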

How the results depend on the processing

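The counts limit Tbx18 and labelled upper Tbx22 most, and the cause of each change was not tested. Half-day and whole-day subsets were chosen after seeing the data. Embryo as a replicate block changed no member's call and gave -4.42 for Tbx22 between the labels, and scaling by size factors or no filter changed none either. Between the labels 5902 genes passed, 3144 at the last 4 stages, 3288 at half-day and 3183 at whole-day stages, and 4847–5534 with an embryo left out. Labelled upper slopes called 999 genes, 2051 by DESeq2, 2152 with the alternating set, 2 with lane, 321 at half-day and 538 at whole-day stages, and 192–1401 with an embryo left out. Labelled lower slopes called 670, 1799, 1789, 19, 153 and 269 genes in the same order, and 34–758 with an embryo left out. The interaction called 209 genes, 595 by DESeq2, 673 with the alternating set, 475 with the block and 14–136 with an embryo left out.

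The label difference at the first 4 stages was -0.34 for Tbx1, -0.022 for Tbx2, -0.094 for Tbx3 and 1.51 for Tbx18. At the last 4 stages it was 0.60 for Tbx15 and 1.25 for Tbx18. At half-day stages it was -0.27 for Tbx1, 0.46 for Tbx15 and 1.31 for Tbx18, and at whole-day stages -0.0021 for Tbx2 and -0.18 for Tbx3. Tbx2 changed sign and the others did not pass. With an embryo left out it ranged over 0.94–1.42 for Tbx15 and 1.19–1.77 for Tbx18.

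The labelled upper slope passed for Tbx2 by DESeq2 (0.14) and with the alternating set (0.11), and for Tbx15 with that set (-0.48). It was -0.0189 for Tbx3 at whole-day stages, and did not pass for Tbx22 with lane (1.09) or at half-day stages (1.11). The labelled lower slope was -0.0056 for Tbx1 at whole-day stages, -0.17 for Tbx15 and -0.51 for Tbx18 with lane, and -0.43 for Tbx18 at half-day stages. It did not pass for Tbx3 with lane (0.11), at half-day (0.14) or whole-day stages (0.16), or for Tbx22 with lane (0.40), at half-day (0.34) or whole-day stages (0.62). With an embryo left out, labelled upper slopes ranged over -0.057 to 0.056 for Tbx1, -0.012 to 0.065 for Tbx3 and 0.76–1.40 for Tbx22. Labelled lower slopes ranged over -0.0060 to 0.030 for Tbx1, 0.13–0.15 for Tbx3, -0.15 to 0.13 for Tbx15, -0.13 to 0.40 for Tbx18 and 0.42–0.57 for Tbx22. Slope differences ranged over -0.046 to 0.042 for Tbx1 and -0.21 to 0.43 for Tbx18.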
